A study of Mus musculus with 24 samples.

Results

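The 4 Notch receptor genes Notch1, Notch2, Notch3 and Notch4 and the 5 genes for their classical ligands, Dll1, Dll3, Dll4, Jag1 and Jag2, were followed in mouse embryonic stem cells (ESCs) that lost the Polycomb repressive complex PRC1 or its catalytic activity. The 9 genes were taken by symbol from a gene table of 19409 symbols, with the transcript row of most reads kept for each symbol, and all 9 passed the filter on low counts with 16940 rows in all. The measurement was calibrated RNA sequencing (cRNA-seq), in which total RNA depleted of ribosomal RNA was sequenced together with a fixed proportion of Drosophila SG4 cells, so that read counts could be scaled to the number of ESCs. The table held 12 libraries, 3 from each of 4 groups.

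Both lines came from E14 ESCs grown on gelatin in serum and leukaemia inhibitory factor. PRC1CKO cells (clone B9) carried Ring1a-/-, Ring1b fl/fl and Rosa26::ERT2-Cre, and PRC1CPM cells (clone 41) carried Ring1a with I50A/D53K, a Ring1b fl/fl allele that switches from wild type to I53A/D56K, and Rosa26::ERT2-Cre. 4-hydroxytamoxifen (OHT) at 800 nM for 72 h activated the Cre, which deleted Ring1b in PRC1CKO cells and left only catalytically inactive RING1A and RING1B in PRC1CPM cells, and untreated cells were the control in each line. Untreated PRC1CKO cells thus already lacked RING1A, untreated PRC1CPM cells already carried the inactive RING1A, and neither line was compared here with unmodified cells or with Cre-free cells given OHT. Each line is a single clone, so a difference between lines cannot be told apart from a difference between clones. The labels only number the replicates, which the study's methods call biological, and how they were grown apart is not stated there, so p-values measure the spread between these samples.

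Notch signalling passes between touching cells. A Delta-like or Jagged ligand on one cell binds a Notch receptor on its neighbour, the pull of ligand endocytosis exposes the receptor to ADAM10 and then to γ-secretase, and the released intracellular domain joins RBPJ and a Mastermind-like coactivator in the nucleus to switch on genes such as those of the Hes and Hey families. Signalling has little part in the self-renewal of ESCs but directs many of their later fate choices, in the nervous system, blood vessels and somites among others. PRC1 places ubiquitin on histone H2A and holds many developmental genes silent, often at promoters rich in CpG dinucleotides.

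The promoters of the members on which the results turn are shown first, because CpG content is the sequence property most closely tied to Polycomb binding. They are the 250 bases before the RefSeq start of each gene (GRCm38.p6, the mm10 build), printed on the strand of the gene, with every CpG in capitals. Dll1 lies at chr17:15375824-15376073 on the minus strand, Notch4 at chr17:34564045-34564294 on the plus strand, Notch2 at chr3:98013288-98013537 on the plus strand and Jag2 at chr12:112929496-112929745 on the minus strand.
Dll1: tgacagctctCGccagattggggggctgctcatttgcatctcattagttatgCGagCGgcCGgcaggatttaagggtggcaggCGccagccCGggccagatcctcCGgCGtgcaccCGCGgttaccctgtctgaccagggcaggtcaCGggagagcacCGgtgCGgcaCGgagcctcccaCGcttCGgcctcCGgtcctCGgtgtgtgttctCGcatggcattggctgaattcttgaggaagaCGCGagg
Notch4: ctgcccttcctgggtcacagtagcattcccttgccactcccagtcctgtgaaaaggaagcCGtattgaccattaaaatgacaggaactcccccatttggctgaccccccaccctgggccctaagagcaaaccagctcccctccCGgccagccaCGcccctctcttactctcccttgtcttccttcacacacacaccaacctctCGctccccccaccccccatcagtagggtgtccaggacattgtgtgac
Notch2: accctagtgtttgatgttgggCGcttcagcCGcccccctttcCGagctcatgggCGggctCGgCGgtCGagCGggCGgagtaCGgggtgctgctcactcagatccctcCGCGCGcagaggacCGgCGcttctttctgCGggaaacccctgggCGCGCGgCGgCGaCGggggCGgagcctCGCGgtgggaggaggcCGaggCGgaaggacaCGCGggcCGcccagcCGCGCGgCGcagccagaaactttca
Jag2: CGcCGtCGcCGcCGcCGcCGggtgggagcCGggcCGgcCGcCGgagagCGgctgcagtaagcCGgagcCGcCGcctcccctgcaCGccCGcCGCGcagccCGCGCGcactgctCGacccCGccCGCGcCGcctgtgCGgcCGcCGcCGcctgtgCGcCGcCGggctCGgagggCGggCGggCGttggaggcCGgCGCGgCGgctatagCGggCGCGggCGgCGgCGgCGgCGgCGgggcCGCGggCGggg

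The 4 sequences differed widely in CpG content. Over 300 bases, with the first 50 bases of the gene included, Jag2 held 63 CpG, Notch2 41, Dll1 24 and Notch4 5. The median over 32851 promoters of the same length was 7, and 38% of them held fewer CpG than Notch4 against 80% for Dll1 and 96.5% for Notch2. Notch4 and Dll1, the members that fell after OHT below, were therefore on opposite sides of that median. The other 5 members held from 11 CpG in Dll3 to 25 in Notch3. The core letters of the RBPJ motif, TGGGAA, searched on both strands, were in the promoter of 0 of 9 members and in 25.6% of all promoters, which says only that these letters are not in this window.

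In mm10, Notch1 spans chr2:26457902-26503822, Notch2 chr3:98013538-98150367, Notch3 chr17:32120893-32166852 and Notch4 chr17:34564295-34588543. Among the ligands, Dll1 spans chr17:15367354-15375823, Dll3 chr7:28293555-28301785, Dll4 chr2:119325784-119335666, Jag1 chr2:137081451-137116520 and Jag2 chr12:112908590-112929495. Reads were counted over these whole gene bodies, introns included, and 7.68% of the bases of Notch2 are exon. Dll4 overlaps Gm14207 on the opposite strand by 414 bases. The use of strand in the counting is not stated, so reads of these genes cannot be told apart there.

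Values are normalised read counts, that is, reads over the gene body divided by a size factor from the Drosophila reads. The libraries held 14668159 to 27016156 reads on genes. Normalised read counts summed over all genes came to 119, 83.9 and 84.6% of the mean of the 12 libraries in untreated PRC1CKO replicates 1, 2 and 3, and to 105, 92.7 and 99.7% after OHT. In PRC1CPM cells they came to 116, 90.8 and 94.7% before and 124, 85.3 and 104% after OHT. Replicate 1 was the highest library of every group on this scale, and members whose call changed when replicate 1 of a compared group was left out are given with and without it. Two-sided tests used limma on log2(normalised read count + 1), with Benjamini-Hochberg adjustment over 16940 rows, and a call needed both a fold change over 1.5 and an adjusted p under 0.05.

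The labels could be checked only in part. Rnf2, the gene for RING1B, was at 1756, 1436 and 1385 normalised read counts in untreated and 1489, 1565 and 1585 in OHT-treated PRC1CKO cells (log2 fold change 0.03, adjusted p = 0.963). In PRC1CPM cells Rnf2 was at 1850, 1659 and 1578 before and 1724, 1295 and 1513 after OHT (-0.17, adjusted p = 0.763). A count over the whole gene body hardly registers the loss of 1 exon or a point mutation, so Rnf2 checks neither label. Ring1, the gene for RING1A, differs between the lines, as its first exons are deleted in PRC1CKO cells. It was at 313, 204 and 166 normalised read counts in untreated and 281, 251 and 229 in OHT-treated PRC1CKO cells, and at 179, 182 and 125 before and 161, 111 and 148 after OHT in PRC1CPM cells. The count was thus not lower in the line labelled with the deletion (PRC1CPM minus PRC1CKO -0.46, adjusted p = 0.561, untreated, and -0.86, adjusted p = 0.156, after OHT). Reads on the deleted and the remaining part are not separate in these counts, so Ring1 does not check the line labels. Of 11 markers of ESCs listed, 10 were in the table and all 10 were expressed, with Tdgf1, a coreceptor of Nodal, the most abundant at 20324 ± 9964 normalised read counts in untreated PRC1CKO and 21416 ± 8449 in untreated PRC1CPM cells (SD, n = 3).

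Dll1, the Delta-like ligand best known from somites and neural progenitors, fell in both lines. It was at 1010, 549 and 927 normalised read counts in untreated PRC1CKO cells and 321, 353 and 398 after OHT, and at 1866, 627 and 1373 in untreated PRC1CPM cells and 526, 317 and 489 after OHT. Every OHT-treated library was below every untreated library of its line, with replicate 2 the lowest untreated library in each. The log2 fold change was -1.17 ± 0.28 (SE, adjusted p = 0.00133 by limma) in PRC1CKO and -1.43 ± 0.28 (adjusted p = 0.000138) in PRC1CPM cells, or 0.445 and 0.371 of the untreated level on the log2(count + 1) scale.

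Notch4, the receptor known mainly from endothelium, fell in PRC1CKO cells. It was at 1013, 680 and 667 normalised read counts before and 400, 268 and 374 after OHT, without overlap (log2 fold change -1.17 ± 0.26, adjusted p = 0.000449). In PRC1CPM cells it was at 1075, 866 and 934 before and 838, 373 and 612 after OHT, again without overlap, although the highest treated library was close to the lowest untreated one. The log2 fold change of -0.73 ± 0.26 passed the threshold by little (adjusted p = 0.0498). Without OHT-treated PRC1CPM replicate 2, the library with the lowest Notch4 of its group, it was -0.41 (adjusted p = 0.339), and without untreated PRC1CPM replicate 1 it was -0.64 (adjusted p = 0.114). Without untreated or OHT-treated PRC1CPM replicate 3 it was -0.74 and -0.77 (adjusted p = 0.125 and 0.0819). DESeq2 and edgeR did not call the gene either, at -0.66 with each (adjusted p = 0.095 and 0.0804). In all, the call was lost in 15 of 23 alternative settings, while a fit with the replicate number as a block kept it (adjusted p = 1.24e-05).

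In bulk RNA, fewer cells that express a gene and less RNA per cell cannot be told apart, for these falls and for every change below. Dll1 and Notch4 were thus 2 of 9 members called lower in PRC1CKO cells, where 3.09% of all genes tested were called lower, and 2 of 9 in PRC1CPM cells, where 1.4% were. Of the 9 members 0 were called higher in either line by limma, DESeq2 or edgeR, while 16.5% of all genes were called higher in PRC1CKO and 13.1% in PRC1CPM cells. At an unadjusted p under 0.05, 4 members differed in PRC1CKO cells (Dll1, Notch4, Notch2 and Jag2) and 2 in PRC1CPM cells (Dll1 and Notch4), against 28.1% and 22.9% of all genes. The median log2 fold change of the members was 0.24 in PRC1CKO and 0.03 in PRC1CPM cells, beside 0.12 and 0.10 over all genes tested.

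**Figure D1:**
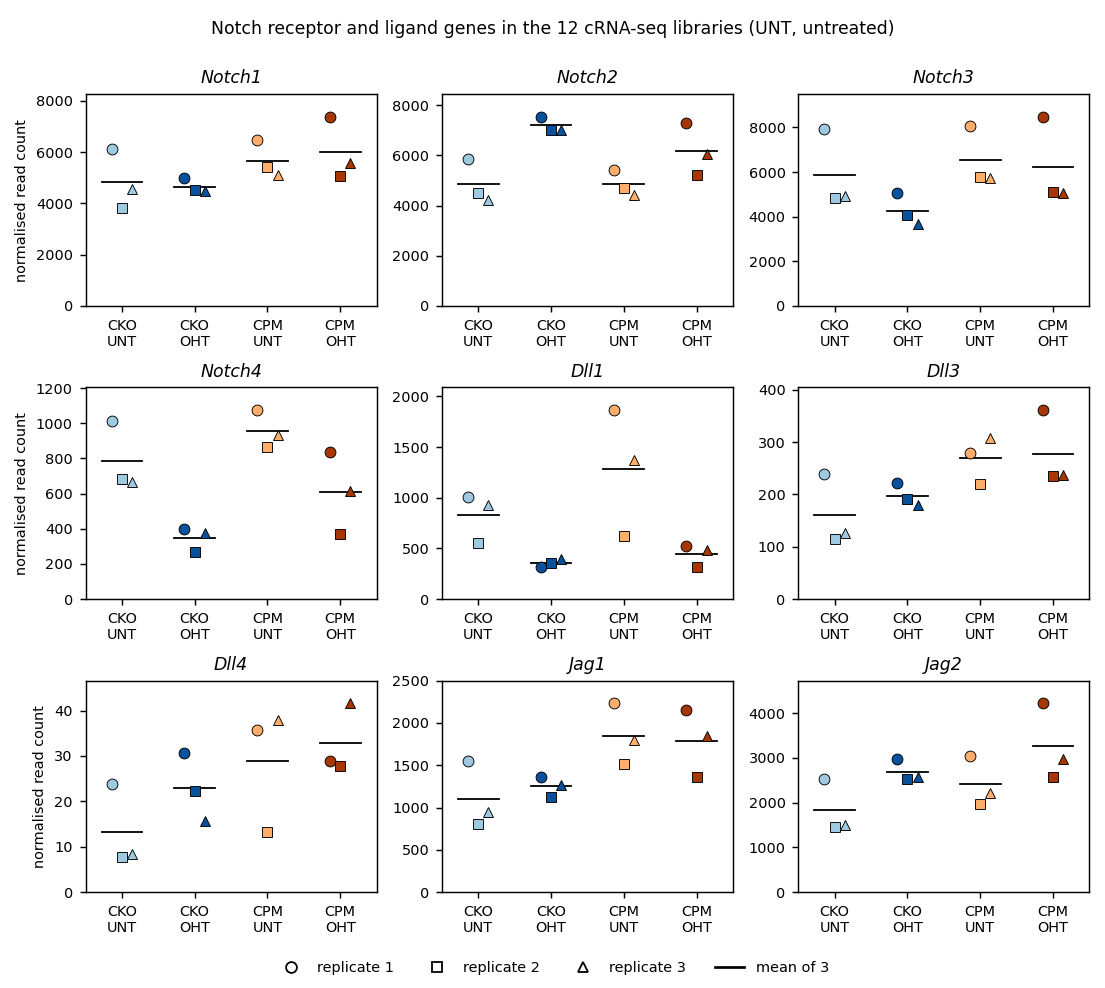
Normalised read count (vertical axes, linear and from 0) of each of the 9 genes in the 12 libraries, with a circle, square or triangle for replicate 1, 2 or 3 of each line and treatment (UNT, untreated) and a line at the mean. Dll1 and Notch4 show every OHT-treated library below the untreated libraries of the same line, while Notch1 overlaps between treatments in both lines.

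Notch2 and Jag2 sat at the threshold in PRC1CKO cells. Notch2, a widely expressed receptor, was at 5839, 4492 and 4221 normalised read counts before and 7530, 7029 and 7011 after OHT, without overlap (log2 fold change 0.58 ± 0.20, adjusted p = 0.0289), which is a fold just under 1.5 and so not a call. Jag2, a Jagged ligand, was at 2525, 1451 and 1505 before and 2979, 2530 and 2566 after OHT, where the lowest treated library was within 5 counts of the highest untreated one (0.60 ± 0.23, adjusted p = 0.0515). Jag2 was called in 8 of 23 alternative settings, among them the 6 libraries of the comparison alone (0.60, adjusted p = 0.0276). A limma fit with the replicate number as a block called it too (adjusted p = 2.36e-05), among 3435 genes higher in place of 2787. Notch2 had an adjusted p of 5.11e-05 in that fit, and its fold stayed under 1.5. Untreated PRC1CKO replicate 1 was the highest untreated library for both genes. Without it Notch2 rose by 0.72 (adjusted p = 0.00338) and Jag2 by 0.86 (adjusted p = 0.00205), and both became calls. The whole table shifted upwards too when that library was left out. Calls over all genes in PRC1CKO cells went from 2787 to 3729 higher and from 524 to 326 lower. The all-gene median there went from 0.12 to 0.29, so these 2 calls came with a general shift. The PRC1CKO values of the members that were not called moved as well without that library, to 0.71 for Dll3, 0.51 for Jag1, 1.35 for Dll4, 0.16 for Notch1 and -0.21 for Notch3, and these were still not calls.

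In PRC1CPM cells neither gene was called. Notch2 was at 5405, 4700 and 4437 before and 7303, 5217 and 6056 after OHT (0.34, 95% interval -0.05 to 0.74, adjusted p = 0.324). Jag2 was at 3052, 1967 and 2212 before and 4225, 2581 and 2984 after OHT (0.43, interval -0.02 to 0.89, adjusted p = 0.256). Treated and untreated libraries overlapped for both, and in each of the 3 numbered pairs the treated library was the higher. With the replicate number as a block the adjusted p was 0.0313 for Notch2 and 0.00479 for Jag2, and the fold stayed under 1.5.

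The other receptors did not pass the test. Notch1, the receptor with the broadest roles in development, was at 6128, 3814 and 4553 before and 4988, 4506 and 4481 after OHT in PRC1CKO cells (log2 fold change -0.03, 95% interval -0.44 to 0.38), and at 6467, 5426 and 5106 before and 7376, 5060 and 5565 after OHT in PRC1CPM cells (0.07, interval -0.34 to 0.48). These intervals hold no change larger than 0.48 on the log2 scale in either direction. Notch3, best known from vascular smooth muscle, was at 7908, 4855 and 4905 before and 5050, 4096 and 3655 after OHT in PRC1CKO cells (-0.44, adjusted p = 0.18). In PRC1CPM cells it was at 8076, 5772 and 5726 before and 8468, 5110 and 5066 after OHT (-0.09, adjusted p = 0.902).

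Among the other ligands, Jag1, which in mammals acts in vessels, liver and inner ear, was at 1551, 800 and 950 before and 1355, 1123 and 1270 after OHT in PRC1CKO cells, and at 2232, 1515 and 1796 before and 2156, 1357 and 1841 after OHT in PRC1CPM cells. Its log2 fold changes were 0.24 (adjusted p = 0.595) and -0.06 (adjusted p = 0.951). Dll3, a divergent ligand that does not activate receptors on neighbouring cells, ranged from 114 to 238 in untreated and 179.7 to 221.5 in OHT-treated PRC1CKO cells, and from 220.5 to 308 and 234 to 361 in PRC1CPM cells (0.38 and 0.03, adjusted p = 0.464 and 0.982). Dll4, the ligand of sprouting endothelium, was near the limit of detection at 7.70 to 41.6 normalised read counts over the 12 libraries. Its log2 fold changes of 0.86 and 0.29 had 95% intervals of -0.15 to 1.88 and -0.73 to 1.30. A rise in Dll4 of more than 2-fold was thus not excluded in either line at this depth.

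**Figure D2:**
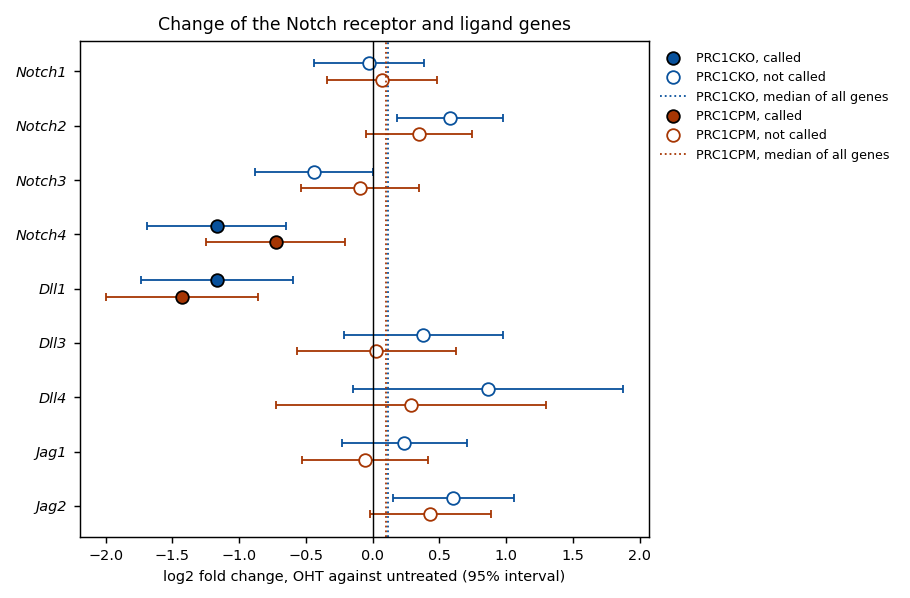
Log2 fold change after OHT (horizontal axis) of each of the 9 genes (vertical axis) in PRC1CKO and PRC1CPM cells, with bars for 95% intervals from limma, filled points for calls and dotted lines at the medians of all genes. The filled points are Dll1 and Notch4 in both lines, and the widest intervals belong to Dll4.

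Levels were compared between genes per kb of gene body. In untreated PRC1CKO cells Notch3 (128 ± 38.0, SD, n = 3), Notch1 (105 ± 25.7), Dll1 (97.8 ± 29.0) and Jag2 (87.4 ± 28.9) formed an upper group in which each overlapped its neighbour in the order. Notch2 (35.5), Notch4 (32.5), Jag1 (31.4) and Dll3 (19.4) formed a lower group, also with overlapping neighbours, and Dll4 was far below at 1.35. Untreated PRC1CPM cells had the same upper group of 4 genes, with Dll1 first at 152 ± 73.6 and all neighbours overlapping, and Dll4 last at 2.93. After OHT, Jag2 was first in both lines, at 129 ± 11.9 in PRC1CKO cells, above Notch1 in every library, and at 156 ± 41.0 in PRC1CPM cells, where it overlapped Notch3. Dll1 left the upper group in both lines, at 42.2 ± 4.56 and 52.4 ± 13.2 per kb, and Notch4 was second to last in both, at 14.3 ± 2.88 and 25.1 ± 9.59. The order depends on the length used, because the reads fall on introns as well. Per kb of exon, the mean of Dll1 was below those of Jag2, Notch1, Notch2 and Notch3 in both untreated lines (242 ± 71.7 and 376 ± 182), with overlapping libraries in PRC1CPM cells, and Notch2 was first in OHT-treated PRC1CKO cells (684 on average), overlapping Jag2 (664 ± 61.6), while Jag2 stayed first in OHT-treated PRC1CPM cells (805 ± 211). After OHT Jag1 was above Dll1 in both lines on this scale.

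The make-up of the ligand pool per kb of gene body shows the same genes on a scale on which the size factor of a library cancels, so that replicate 1 no longer stands apart. Dll1 made up 37.8, 37.8 and 48.7% of the summed level of the 5 ligands in untreated PRC1CKO libraries and 15.2, 18.9 and 20.5% after OHT. In PRC1CPM cells its share was 47.1, 30.9 and 45.0% before and 16.7, 16.2 and 20.2% after OHT. Jag2 took the larger place in both lines, with a mean share of 36.9% ± 4.36 before and 55.2% ± 1.87 after OHT in PRC1CKO cells and 33.3% ± 5.28 before and 52.6% ± 2.31 after OHT in PRC1CPM cells (SD, n = 3). Per kb of exon the shares were other, at 25.2% ± 4.94 before and 9.59% ± 1.53 after OHT for Dll1 and 46.5% ± 3.76 and 60.7% ± 1.34 for Jag2 in PRC1CKO cells, and the directions in both lines were those per kb of gene body. Shares within a pool are tied to each other, so that a fall in one raises the rest, and no test was made on them.

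Within the receptor pool Notch4 went from 10.8% ± 0.419 to 5.49% ± 0.965 in PRC1CKO cells and from 11.7% ± 0.782 to 7.32% ± 1.51 in PRC1CPM cells. Notch2 went from 11.9% ± 1.13 to 20.2% ± 1.08 and from 10.5% ± 0.548 to 13.6% ± 1.21. For both genes the treated shares lay outside the range of the untreated shares in each line. Per kb of exon Notch4 went from 6.54% ± 0.182 to 2.99% ± 0.533 and Notch2 from 25.6% ± 2.06 to 39.0% ± 1.71 in PRC1CKO cells, again outside that range. Notch1 and Notch3 together supplied most of the receptor level in every group, with means per kb of gene body of 35.0% to 39.2% for Notch1 and 35.4% to 42.3% for Notch3.

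**Figure D3:**
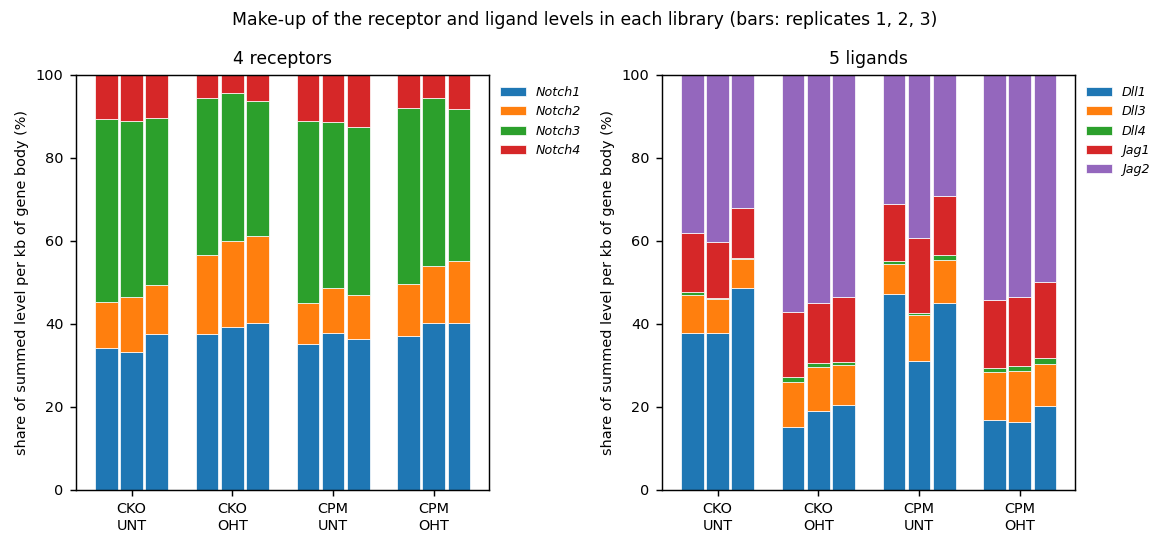
Share (percent, vertical axis from 0) of each receptor in the summed level of the 4 receptors and of each ligand in that of the 5 ligands, per kb of gene body, with 1 stacked bar for each of the 12 libraries. The Dll1 part shrinks and the Jag2 part grows in all 6 OHT-treated libraries.

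The lines were then compared with each other, which asks whether losing PRC1 altogether and losing only its catalysis had different effects on these genes. The difference between the changes of the 2 lines (PRC1CPM minus PRC1CKO) was tested as an interaction and ran from -0.58 for Dll4 to 0.44 for Notch4 on the log2 scale. Of the 9 members 0 were called, and none reached an unadjusted p under 0.05, against 2.93% of all genes tested at that level and 0.0236% called. For Dll1 the difference was -0.26 (95% interval -1.07 to 0.54) and for Notch4 0.44 (interval -0.30 to 1.18), so differences of 1 log2 unit between the lines lie within these intervals. DESeq2 and edgeR likewise called 0 of 9.

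After OHT, PRC1CPM cells differed from PRC1CKO cells by -0.23 (Notch2) to 0.75 (Notch4) on the log2 scale, with 0 of 9 members called by limma, DESeq2 or edgeR against 1.47% of all genes by limma. With the replicate number as a block Notch4 was called (adjusted p = 3.01e-05), as were 1131 genes higher and 232 lower in place of 212 and 37. Notch4 (0.75, unadjusted p = 0.00585), Notch3 (0.51) and Jag1 (0.49) reached an unadjusted p under 0.05, as 11% of all genes did, and all 3 were higher in PRC1CPM cells. Between untreated cells 0 of 9 were called by these tools as well, against 2.69% of all genes. With the block 3 were called there, all higher in PRC1CPM cells, namely Jag1 (0.79, adjusted p = 3.1e-07), Dll3 (0.81, adjusted p = 0.000384) and Dll4 (1.11, adjusted p = 0.0451), among 1631 genes higher and 253 lower in place of 374 and 81. Of the 9, 3 reached an unadjusted p under 0.05 (Jag1, Dll3 and Dll4), against 14.1% of all genes. All 9 differences were above 0 there, from 0.01 for Notch2 to 1.11 for Dll4, and the median over all genes tested was above 0 too (0.12). The sign of Notch2 turned in 6 of 23 settings. Jag1 was the closest to the threshold (0.79 ± 0.23, adjusted p = 0.0526). Without untreated PRC1CKO replicate 1 the calls in that comparison numbered 4, all higher in PRC1CPM cells (Dll4 1.59, Dll3 1.14, Jag1 1.06 and Jag2 0.68), while the calls over all genes went from 374 to 1492 higher and from 81 to 78 lower. Without untreated PRC1CPM replicate 2, the library with the lowest Dll1 of its group, Dll1 was called higher in untreated PRC1CPM cells (1.00, adjusted p = 0.019, against 0.55 and 0.383 with all libraries), as was Jag1, among 616 genes. These comparisons share samples with the treatment comparisons and are not independent of them.

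The scale of the libraries bears on all of these directions. On the deposited spike-in scale 2787 genes were called higher and 524 lower in PRC1CKO cells after OHT, and 2226 and 237 in PRC1CPM cells. The replicate block gave 3435 and 823 in PRC1CKO and 3033 and 461 in PRC1CPM cells. With 1 library left out and no block, the counts ran from 2016 to 3729 higher and 326 to 674 lower in PRC1CKO cells and from 1439 to 2547 higher and 123 to 339 lower in PRC1CPM cells. The moves of over 1.5 times were those of the genes called lower in PRC1CKO cells without untreated replicate 1 (326) or OHT-treated replicate 2 (329), of the genes called higher in PRC1CPM cells without OHT-treated replicate 1 (1439), and of those called lower there without untreated replicate 1 (140) or 3 (132) or OHT-treated replicate 2 (123) or 3 (152). When the libraries were scaled by TMM, which assumes that most genes do not change, these splits were 2845 and 1133, and 2396 and 595, and the median of all genes in PRC1CKO cells moved from 0.12 to -0.0019. Dll1 and Notch4 were called lower in both lines on either scale, and the signs of Notch1 and Dll3 in PRC1CPM cells and of Notch2 between untreated lines, all near 0, turned.

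Genes beside Dll1 and Notch4 did not pass the test, but too few were tested to set them apart from all genes. Of all genes 16.5% were called higher and 3.09% lower in PRC1CKO cells, and 13.1% and 1.4% in PRC1CPM cells. Within 50 kb of the 9 members the table lists 31 genes, of which 28 were tested. The 1 tested neighbour of Dll1, Fam120b, had log2 fold changes of 0.24 in PRC1CKO and 0.22 in PRC1CPM cells, and 0 of the 7 tested neighbours of Notch4 in the major histocompatibility region were called by limma in either line (smallest adjusted p = 0.335). The calls among the 28 were BC089491 beside Dll3 (1.61 and 1.58) and Chac1, a glutathione-degrading enzyme, beside Dll4 (-2.15 and -1.94) in both lines, and Ino80, a chromatin remodeller beside Dll4, in PRC1CPM cells (-0.62).

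Other genes of the pathway were described by role. Of 15 enzymes that modify or cleave the receptors (fucosyl- and glycosyltransferases, ADAM proteases and γ-secretase subunits) 13 were in the table, and 0 of 13 were called by limma in either line. Over all genes 16.5% were called higher and 3.09% lower in PRC1CKO cells, and 13.1% and 1.4% in PRC1CPM cells. At an unadjusted p under 0.05 there were 4 in PRC1CKO and 1 in PRC1CPM cells, against 28.1% and 22.9% of all genes. With the replicate block 3 were called in PRC1CKO cells (Aph1b, Lfng and Rfng) and 1 in PRC1CPM cells (Lfng, a glycosyltransferase that modifies Notch). All were higher after OHT, among 3435 and 3033 genes called higher over the whole table. The median log2 fold change of the 13 was 0.29 in PRC1CKO and 0.17 in PRC1CPM cells. Adam10, the protease of the first activating cut and the gene with most reads of this list, was at 3112 ± 684 normalised read counts before and 3973 ± 122 after OHT in PRC1CKO cells (SD, n = 3, log2 fold change 0.37, adjusted p = 0.246).

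Of 12 genes for ligand endocytosis and receptor turnover, 1 was called, and it fell in both lines, where 3.09% and 1.4% of all genes were called lower. Dtx3, a member of the Deltex family of E3 ligases, was at 1411, 1011 and 1112 normalised read counts before and 544, 576 and 517 after OHT in PRC1CKO cells (-1.10, adjusted p = 0.000309). In PRC1CPM cells it was at 1476, 950 and 1182 before and 960, 571 and 739 after OHT, where 1 treated library overlapped the untreated range (-0.68, adjusted p = 0.044), and that call was lost in 13 of 23 alternative settings, among them leaving out OHT-treated PRC1CPM replicate 2 (-0.49) or untreated PRC1CPM replicate 1 (-0.52). Mib1, the ligase that drives ligand endocytosis and the gene with most reads here, was at 3392 ± 529 before and 3138 ± 98.9 after OHT in PRC1CKO cells (-0.10, adjusted p = 0.824). The list medians were 0.0081 and 0.0077. Dtx4 and Neurl1b were called higher after OHT in PRC1CKO cells with the replicate block.

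Of 9 genes of the nuclear complex, 2 rose in PRC1CKO and 1 in PRC1CPM cells. Over all genes 16.5% and 13.1% were called higher, so these counts were near the all-gene share. Maml3, a Mastermind-like coactivator, was at 725, 497 and 351 normalised read counts before and 3178, 2061 and 2555 after OHT in PRC1CKO cells (2.35, adjusted p = 2.31e-10). In PRC1CPM cells Maml3 was at 578, 661 and 382 before and 2482, 1912 and 1233 after OHT (1.77, adjusted p = 6.13e-07), so that treated and untreated libraries stood well apart in both lines. Rbpj itself, the DNA-binding partner and the gene with most reads of the list, was at 8734 ± 1612 before and 8545 ± 446 after OHT in PRC1CKO cells (-0.02, adjusted p = 0.979). Rbpjl, a paralogue of Rbpj known from pancreas, was called in PRC1CKO cells on few reads, from 0, 6.16 and 10.2 to 28.9, 20.4 and 25.3 normalised read counts (2.57, adjusted p = 0.00207). Without untreated PRC1CKO replicate 1, the library at 0, it was 1.52 (adjusted p = 0.0511), and without untreated PRC1CKO replicate 3 it was 3.26. With the replicate block Rbpjl was called in PRC1CPM cells too (1.74, adjusted p = 0.00789), and Maml2 was called higher in PRC1CKO cells.

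Of 10 target genes of the Hes and Hey type, 9 were tested, and 1 was called in each line, both higher. That is near the 16.5% and 13.1% of all genes called higher. Nrarp, a feedback inhibitor that Notch switches on in many tissues, was called in PRC1CPM cells, from 116, 87.6 and 62.4 to 192, 172 and 217 normalised read counts (1.15, adjusted p = 0.0143). Without PRC1CPM replicate 3 it was not called, at 0.93 when the untreated library was left out and 1.07 when the treated one was. In PRC1CKO cells it was at 168, 52.3 and 67.7 before and 146, 150 and 169 after OHT (0.87, adjusted p = 0.0698), and was called there in 7 of 23 settings, among them without untreated PRC1CKO replicate 1 (1.37, adjusted p = 0.00107) and with TMM (0.75, adjusted p = 0.0363). The difference in Nrarp between the changes of the lines was 0.28 (95% interval -0.70 to 1.26) and was not called. Hes2, a Hes family repressor, was called in PRC1CKO cells at 9.24 to 20.9 normalised read counts before and 27.1 to 42.7 after OHT (1.31, adjusted p = 0.0465), a call lost in 10 of 23 settings. Hes1, the most widely used readout of Notch activity and the gene with most reads here, was at 432 ± 97.3 before and 444 ± 75.9 after OHT in PRC1CKO cells (0.05, adjusted p = 0.942) and at 414 ± 37.2 before and 574 ± 101 after OHT in PRC1CPM cells (0.46, adjusted p = 0.291). With the replicate block Nrarp and Heyl, a Hey family repressor, were called higher in both lines. The list medians were 0.24 and 0.46.

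Of 6 non-canonical ligands, 3 rose in PRC1CKO and 2 in PRC1CPM cells, where 16.5% and 13.1% of all genes were called higher. The list medians were 1.09 and 0.81 beside 0.12 and 0.10 over all genes. Dlk1, an imprinted Delta-like protein without the domain that activates Notch, was at 206, 109 and 108 normalised read counts before and 1091, 961 and 691 after OHT in PRC1CKO cells (2.73, adjusted p = 1.27e-10). In PRC1CPM cells Dlk1 was at 278, 107 and 155 before and 1429, 886 and 957 after OHT (2.67, adjusted p = 7.41e-10). Its log2 fold change was thus of the opposite sign to that of Dll1 in both lines. Cntn1, a neural adhesion molecule, rose from 53.7 ± 17.7 to 174 ± 48.0 in PRC1CKO (1.70, adjusted p = 9.27e-05) and from 95.5 ± 4.51 to 223 ± 76.3 in PRC1CPM cells (1.15, adjusted p = 0.012), the latter not called without OHT-treated replicate 1 (0.95) or 2 (1.05). Dlk2, a close relative of Dlk1, rose in PRC1CKO cells from 10.6 ± 11.7 to 31.9 ± 7.68 (2.05, adjusted p = 0.00613). Untreated replicate 3 decides that call, since without it the value was 1.28 (adjusted p = 0.162), while without untreated replicate 1 it was 2.88. With the replicate block Dlk2 was called in PRC1CPM cells too (1.49, adjusted p = 0.00641). Egfl7, the gene with most reads of this list, was at 788 ± 79.2 before and 795 ± 77.1 after OHT in PRC1CKO cells (0.01, adjusted p = 0.984). Between the lines 0 genes of the 5 lists were called by limma, and an unadjusted p under 0.05 was reached after OHT by Hes7 and between untreated cells by Rfng, Dtx4 and Cntn1. With the replicate block these 4 genes were called in those comparisons, each higher in PRC1CPM cells.

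**Figure D4:**
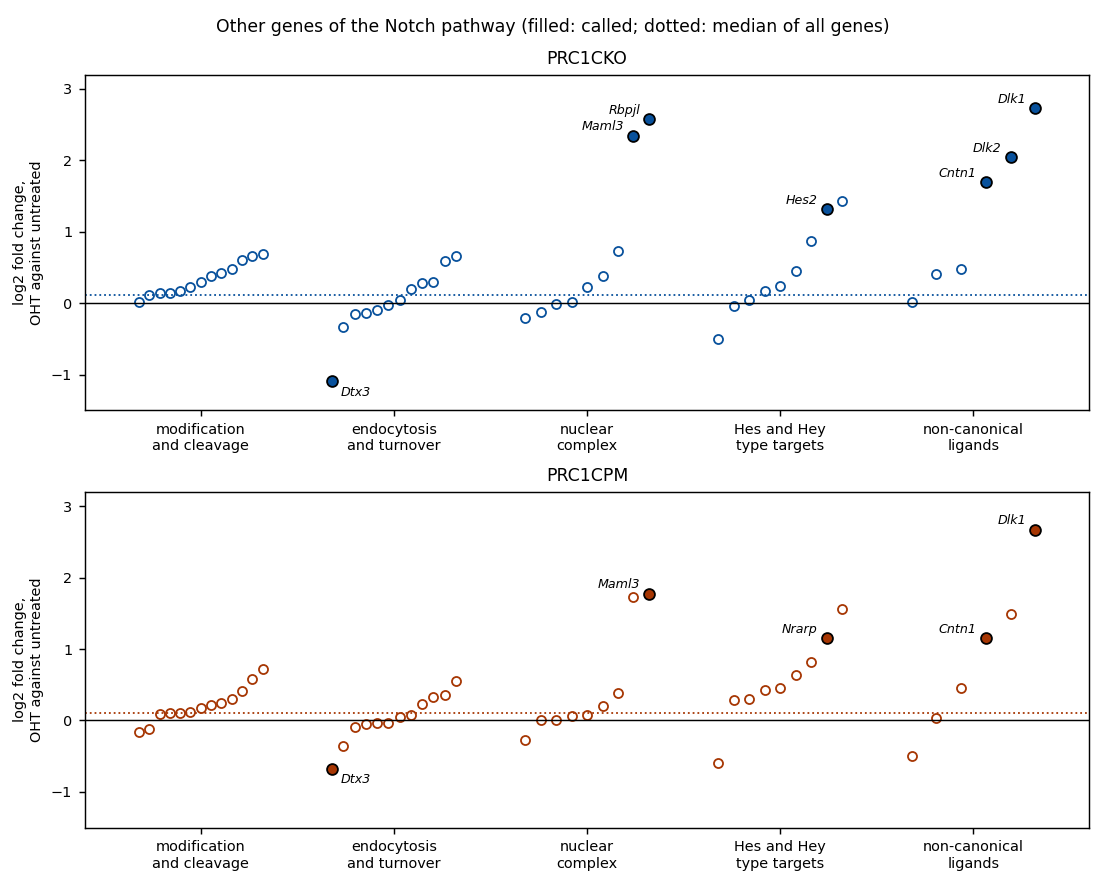
Log2 fold change after OHT (vertical axes) of the other Notch pathway genes in 5 lists by role, in PRC1CKO and PRC1CPM cells, with 1 point per gene, filled where called, and a dotted line at the median of all genes tested (0.12 and 0.10). Dlk1 is the highest point in both lines, and Dtx3 is the only filled point below 0.

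Markers of other cell types that use Notch genes were examined list by list. The counts of these lists and of the ESC markers stand beside 16.5% of all genes called higher and 3.09% lower in PRC1CKO cells. In PRC1CPM cells these shares were 13.1% and 1.4%. Summed markers of primitive endoderm went from 1151 ± 584 to 3582 ± 653 normalised read counts in PRC1CKO and from 738 ± 67.8 to 1925 ± 384 in PRC1CPM cells (SD, n = 3), where the most abundant of the 6 markers was Pdgfra. Gata6 (2.96 and 2.26), Gata4 (2.14 and 1.63), Pdgfra (1.74 and 1.49) and Sox17 (1.39 and 1.35) rose in both lines, and Sox7 (2.62) and Dab2 (0.80) in PRC1CPM cells. The Dab2 call was lost in 9 of 23 settings, DESeq2 (adjusted p = 0.0514) included. In PRC1CKO cells Sox7 had a log2 fold change of 1.10 (adjusted p = 0.0586), without overlap, and was called in 9 of 23 settings, DESeq2 (adjusted p = 0.0159) and edgeR (0.0435) included. Of 5 endothelial markers tested, 3 were called higher in both lines (Kdr 2.19 and 1.69, Erg 2.26 and 2.05, Cdh5 2.06 and 1.98), while the summed level, mostly from Tek, went from 704 ± 157 to 1107 ± 146 and from 917 ± 62.4 to 1527 ± 116.

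Of 5 neural progenitor markers tested, 3 rose (Pax6 3.06, Nes 1.28, Neurog2 2.66) and 1 fell (Tubb3 -0.71) in PRC1CKO cells, and 2 rose in PRC1CPM cells (Pax6 1.28, Neurog2 2.53). Their sum, mostly from Nes, went from 1445 ± 575 to 2208 ± 178 and from 1633 ± 146 to 2032 ± 585. Of 4 presomitic mesoderm markers tested, 3 rose in PRC1CKO cells (Rspo3 2.59, T 1.88, Mesp2 1.19) and 2 in PRC1CPM cells (Rspo3 2.49, T 1.51), although DESeq2 called neither T (adjusted p = 0.246 in PRC1CKO and 0.309 in PRC1CPM cells) nor Mesp2 (0.0687), and edgeR did not call Mesp2 (0.0562). With 1 library left out T ran from 1.30 (without untreated replicate 3) to 2.75 (without untreated replicate 1) in PRC1CKO cells and from 1.17 to 2.09 in PRC1CPM cells. The presomitic list had sums, mostly from T, of 191 ± 116 before and 413 ± 68.3 after OHT and of 207 ± 92.1 before and 445 ± 192 after OHT. Of 5 smooth muscle and pericyte markers 1 rose in both lines (Myh11 1.54 and 1.16), and the sum, mostly from Tagln, was at 1914 ± 1047 before and 1899 ± 323 after OHT in PRC1CKO cells and at 2474 ± 1232 and 2464 ± 807 in PRC1CPM cells. Some markers were too low to test (Fabp7, Emcn, Mesp1 and Msgn1), but none was at 0 in all 12 libraries. With the replicate block the endothelial marker Tie1 and the pericyte marker Pdgfrb were also called higher after OHT in PRC1CPM cells, and Sox7 in PRC1CKO cells.

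Of 10 ESC markers tested, 3 fell in PRC1CKO cells (Fgf4 -1.06, Sox2 -0.89, Utf1 -0.79) and 1 in PRC1CPM cells (Fgf4 -0.85). Their sum was at 85422 ± 18835 before and 64414 ± 5376 after OHT in PRC1CKO cells and at 75642 ± 13546 and 68031 ± 19287 in PRC1CPM cells, with overlap between treated and untreated libraries in both lines. OHT-treated PRC1CPM replicate 2, the library with the lowest Notch4 and Dll1 of its group, also had the lowest sum of ESC markers of all 12, at 45776. With 1 library of the same line left out, the calls of Neurog2, Tubb3, T, Mesp2 and Sox17 in PRC1CKO cells and of Neurog2, Pax6, T, Myh11, Sox17, Dab2 and Fgf4 in PRC1CPM cells were lost for at least 1 choice of library. Markers differed between the lines too. After OHT, Tek (1.24) was called higher and Gata6 (-1.78) and Pdgfra (-1.04) lower in PRC1CPM than in PRC1CKO cells, and with the replicate block Tie1 (0.81) and Fgf4 (0.62) were called higher and Gata4 (-0.79) and Pax6 (-1.10) lower as well. Between untreated lines Sox7 (-2.26), Sox1 (-1.40) and Tfcp2l1 (-0.88) were called lower in PRC1CPM cells, and with the block Gata6 (-1.08) and Pdgfra (-0.79) were called lower and Nes (0.70) and T (0.68) higher as well. The part of these marker differences in the Notch gene results was not tested.

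**Figure D5:**
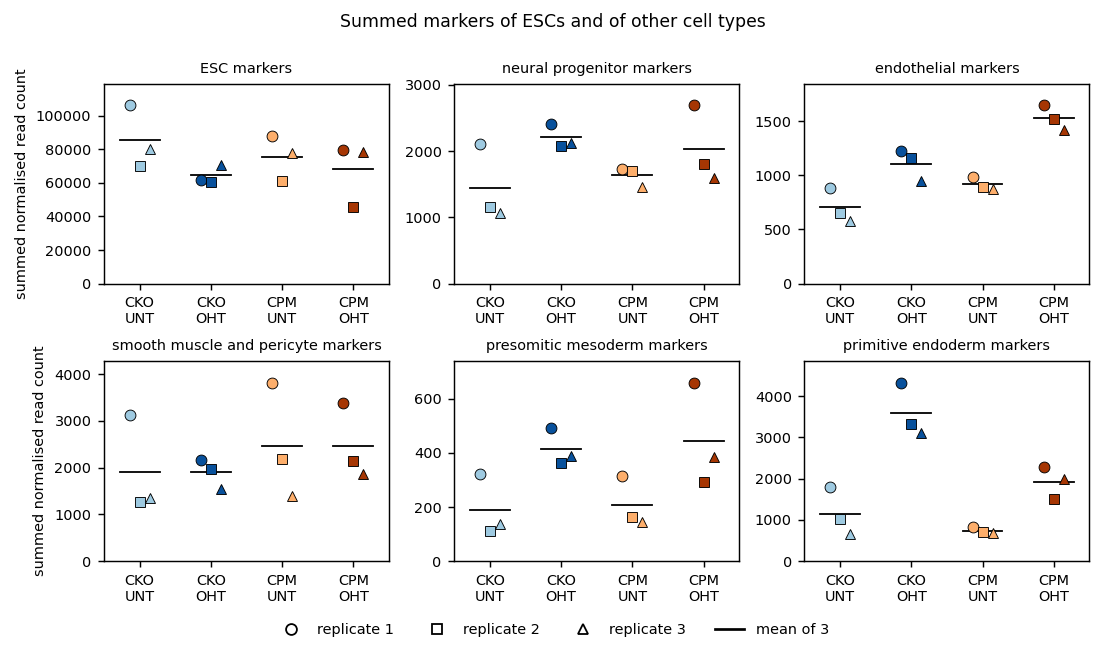
Summed normalised read counts (vertical axes) of 6 marker lists in the 12 libraries, with 1 point per replicate by line and treatment (UNT, untreated) and a line at the mean. Primitive endoderm sums are higher after OHT in both lines without overlap, and the means of ESC markers are lower with overlap.

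The gene most like each member was sought over all 12 libraries among 15792 tested symbols, by Pearson r of log2(normalised read count + 1). Jag2 was most like Fgd5 (r = 0.999), Notch2 like Lpcat4 (0.986), Jag1 like Mettl2 (0.983), Notch4 like N4bp3 (0.981) and Notch3 like Trappc6a (0.979). Notch1 was most like Wsb1 (0.976), Dll3 like Cxcl16 (0.976), Dll1 like Slc20a1 (0.974) and Dll4 like Peg12 (0.938). Among the members themselves, Notch4 and Dll1 were each most like the other (r = 0.837), as were Dll3 and Jag1 (0.936). The points share libraries and the high scale of replicate 1, and the highest of 15792 values is printed in each case, so these are descriptions only.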

How the data were processed

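Per the study's methods, reads were cleared of rDNA with Bowtie 2, aligned with STAR and then Bowtie 2 to mm10 joined with dm6, kept where unique and cleared of duplicates with Sambamba. The deposited values, read here as a signal, are read counts over refGene gene bodies that the authors divided by a DESeq2 size factor from dm6 reads, corrected for the dm6 to mm10 ratio in matched genomic DNA. Dividing by the smallest step of each library gave whole reads for 100% of values (within 0.02 of a whole number), so depth was known. The authors' fold change and p-value columns were not used, and 12 genomic DNA libraries were not analysed here.

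Rows that had 10 or more reads in 3 or more libraries entered limma 3.58.1 (R 4.3.3) on log2(value + 1), with 4 group means over 12 libraries, no block and a trended prior. DESeq2 1.42.0 and edgeR 4.0.16 on the recovered reads, TMM, no filter, a pseudocount of 0.1, other thresholds, the 6 libraries of a comparison alone, 1 row per symbol, a replicate block and each library left out were alternatives. Libraries with the same replicate number deviated together (r 0.0988 to 0.438 over 18 pairs of libraries from different groups, against -0.26 to 0.0275 for different numbers). All 3 pairs were over 0.1 in PRC1CPM cells and in both comparisons between lines, and 1 of the 3 in PRC1CKO cells was at 0.0988. The block was 1 fit over all 12 libraries with 1 effect per replicate number, so its values in any comparison pair the PRC1CKO libraries as well. That the numbers pair the samples was taken from the data alone, and blocked calls are given where they change a call of a listed gene. Replicate pairs differed by 7.77 to 26.4 chi-square units per degree of freedom, so none was a duplicate. The test was also run on simulated data, but no outcome is given here and nothing is drawn from it. Named were all 9 members, each listed gene called after OHT, the gene with most reads of each list, the most similar gene of each member, and the label checks Rnf2 and Ring1. The 9 genes and all lists were chosen with earlier results of these data known. Neighbouring genes, and listed genes called only between lines or only with the block, were named after their values were seen. Promoters are from RefSeq (GRCm38.p6), and all 9 members matched.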

Additional observations from a re-analysis of the deposited data

How the results depend on the processing

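The results of the 9 members in all comparisons, and those after OHT of 28 other listed genes called in at least 1 line, were recomputed under 23 alternative settings (22 for the interaction, which the 6 libraries of 1 comparison cannot give), of which the one without the 4 libraries numbered 1 was chosen after seeing the data. Dll1 was called lower in both lines in all 23 (log2 fold change -1.44 to -0.93 in PRC1CKO and -1.88 to -1.10 in PRC1CPM cells), and Notch4 in PRC1CKO cells in all 23 (-1.29 to -0.97). Notch4 in PRC1CPM cells ran from -0.997 to -0.41. Members called lower there numbered 1, Dll1 alone, with DESeq2, edgeR, no filter, a pseudocount of 0.1, the 6 libraries alone, 1 row per symbol, a fold over 2 or an adjusted p under 0.01, and 1 to 2 with a library left out. Members called higher in PRC1CKO cells numbered 1 (Jag2) with the 6 libraries alone, 2 (Jag2 and Notch2) without the 4 libraries numbered 1, and 0 to 2 with a library left out. The genes called higher there over the whole table numbered 2933, 3297 and 2016 to 3729 under these settings, against 2787. Between OHT-treated lines TMM called 1 (Notch4) among 524 genes higher in place of 212, and 0 to 1 were called with a library left out (Notch4, without OHT-treated PRC1CPM replicate 2). Between untreated lines 2 (Dll3 and Jag1) were called with TMM and 2 without the 4 libraries numbered 1, and 0 to 4 with a library left out, while the genes called higher there over the whole table numbered 745, 710 and 170 to 1492 under these settings, against 374. For the 28 other listed genes, chosen for their change, 103 of 1288 values lost and 32 gained a call. Results of other genes (label checks, neighbours, listed genes not called after OHT, and differences of listed genes between lines) were not recomputed here other than with the block where that is stated. The causes were not tested.

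With the replicate block the calls among members numbered 1 higher (Jag2) and 2 lower in PRC1CKO cells, 2 lower in PRC1CPM cells, 1 (Notch4) between OHT-treated and 3 (Dll3, Dll4 and Jag1) between untreated lines, and 0 for the interaction. In PRC1CKO cells, where the 3 same-numbered pairs were at r = 0.179, 0.0988 and 0.148, all-gene calls with the block were 3435 higher and 823 lower. For the interaction, which uses those samples too, they were 78 and 246 in place of 0 and 4, among them the markers Tek (higher), Nes and Pax6 (lower). The block changed no other call among the members.

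Small values changed sign. Without the 4 libraries numbered 1, Notch1 in PRC1CKO cells was 0.11, Dll3 in PRC1CPM cells -0.15 and the Notch1 interaction -0.10. With TMM, Notch1 and Dll3 in PRC1CPM cells were -0.036 and -0.080, and Notch2 between untreated lines was -0.11. DESeq2 gave -0.0006 and edgeR -0.0007 for the last. With a library left out, the ranges were -0.18 to 0.16 for Notch1 in PRC1CKO cells and, in PRC1CPM cells, -0.088 to 0.18 for Notch1, -0.34 to 0.069 for Notch3, -0.18 to 0.13 for Dll3, -0.19 to 0.54 for Dll4 and -0.21 to 0.13 for Jag1. They were -0.085 to 0.15 for Notch2 between untreated lines, and -0.088 to 0.25 for Notch1, -0.71 to 0.073 for Dll1 and -0.43 to 0.010 for Jag2 in the interaction.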
